A study of Mus musculus with 24 samples.

Results

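Of 24 RNA-seq libraries of mouse inguinal white fat, which lies under the skin of the groin, the 12 with the highest deposited Ucp1 value are called Ucp1-high here and the 12 with the lowest Ucp1-low. The members were chosen by the measured Ucp1 value alone. The class describes libraries and is not a treatment, so no test of Ucp1 between the classes is given. The tissue came from male C57BL6 mice of 10 to 11 weeks, in 4 labelled groups of 6 libraries: ZT15 RUN, ZT15 SED, ZT3 RUN and ZT3 SED. RUN mice had exercised for 1 hour and SED mice had spent a sham hour on an artificial treadmill. By the labels, ZT15 is early active phase and ZT3 early rest phase, and no hour after the bout is given. The mice carried no labelled genetic change. The labels do not say that each library is a separate mouse, so the p-values reflect differences among libraries that may be in part technical. A library is named by its group and replicate number, as in ZT15 RUN 1, and the replicate numbers pair no libraries.

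Ucp1 encodes the uncoupling protein of the inner mitochondrial membrane, which lets protons flow back into the matrix without ATP synthesis and so releases heat. The inguinal depot of the mouse consists mainly of white adipocytes but can hold beige adipocytes, which carry Ucp1 and many mitochondria and become more numerous with cold or beta adrenergic stimulation. Norepinephrine raises cyclic AMP in these cells, and factors of the CREB family then bind cyclic AMP response elements near genes such as Ucp1 and Dio2. In bulk tissue, fewer cells of a type and less RNA per cell cannot be told apart.

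The 250 bases before the RefSeq start of Ucp1, which defines the classes, and of Dio2, the gene with the largest difference between them, are shown with the cyclic AMP response element letters in capitals. The windows are at chr8:83290098-83290347 on the plus strand and chr12:90739039-90739288 on the minus strand of GRCm38.p6, each written 5′ to 3′ in the direction of the gene.
Ucp1: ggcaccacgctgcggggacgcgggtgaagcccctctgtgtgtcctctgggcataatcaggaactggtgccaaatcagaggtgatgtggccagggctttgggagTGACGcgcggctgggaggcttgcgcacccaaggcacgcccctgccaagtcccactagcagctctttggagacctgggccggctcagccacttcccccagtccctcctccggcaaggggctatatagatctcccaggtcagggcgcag
Dio2: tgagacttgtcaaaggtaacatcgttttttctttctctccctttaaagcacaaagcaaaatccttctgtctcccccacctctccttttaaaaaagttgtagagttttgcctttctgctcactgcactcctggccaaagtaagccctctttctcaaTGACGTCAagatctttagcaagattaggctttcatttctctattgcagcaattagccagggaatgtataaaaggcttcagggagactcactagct
The search covered both strands for the core TGACG and the full palindrome TGACGTCA, which contains the core on each strand. The Ucp1 window held 1 core, 147 bases before the start, and the Dio2 window held the palindrome. The core was found in 24.2% of 15520 such windows of the genes in the table and in 6 of 26 windows (23.1%) of the 21 genes higher in Ucp1-high libraries that had one. The palindrome was found in 2.35% of all windows and in 1 of these 26, that of Dio2. A match describes letters in a window and not a bound site.

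The deposited values are TMM-normalized reads per M (mega) reads, and levels below are in that unit without regard to gene length. Ucp1 was at 24.6, 54.6 and 532 (lowest, median, highest) in Ucp1-high libraries, against 0.0342, 2.91 and 17.7 in Ucp1-low libraries. The ratio of the class means was 23.5, and the classes cannot overlap because of how they were made. The lowest value, in ZT3 SED 3, was 1 read. Just inside the boundary were ZT3 RUN 1 at 25.4 and ZT3 RUN 4 at 24.6, and just outside it ZT15 RUN 5 at 17.7 and ZT15 RUN 4 at 14.5. Ucp1 therefore formed a graded series in which 3 libraries, ZT15 RUN 1 at 532, ZT15 RUN 6 at 526 and ZT15 SED 1 at 208, stood above all others, the next being ZT15 SED 4 at 73.8.

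**Figure D1:**
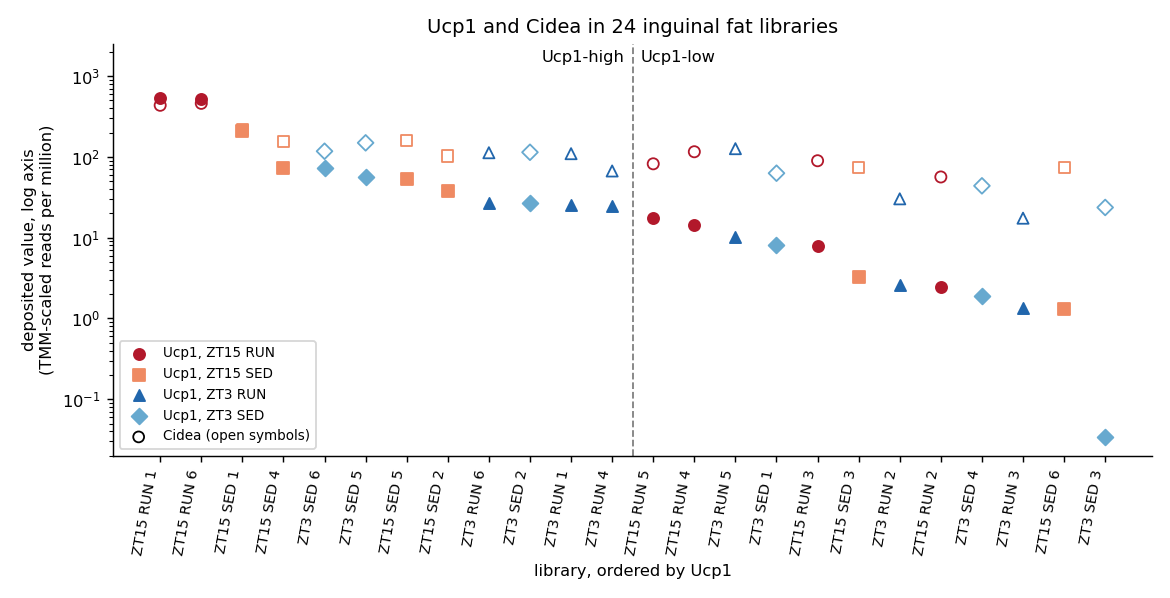
Deposited values (TMM-scaled reads per M reads, log axis) of Ucp1 (filled symbols) and Cidea (open symbols) in each of 24 libraries, ordered by Ucp1 and coloured by labelled group, with the class boundary dashed. Ucp1 ran from 532 to 0.0342 across libraries, while Cidea ran from 460 to 17.4 and its classes overlapped.

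Both classes held libraries of every labelled group. ZT15 RUN had 2 high and 4 low libraries, ZT15 SED 4 high and 2 low, and ZT3 RUN and ZT3 SED 3 of each. Sequencing depth in the listed genes was 23.5 to 34.5 M reads in Ucp1-high libraries and 18.5 to 34.7 M reads in Ucp1-low libraries, and the ranges overlapped. In B cell genes 3 libraries stood apart: Cd79a was at 99.2 in ZT3 RUN 4 and 54.6 in ZT15 SED 5 of the Ucp1-high libraries and at 14.1 in ZT15 SED 3 of the Ucp1-low libraries.

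By the labels alone, Ucp1 did not pass the test in any of 4 contrasts in limma's moderated test on log2(value + 1), adjusted by Benjamini-Hochberg over all genes. It averaged 183 ± 268 in ZT15 RUN and 63.0 ± 76.5 in ZT15 SED (SD, n = 6 each), a log2 difference of 0.49 ± 1.35 (SE; adjusted p = 0.9189 in limma). The 6 ZT15 RUN libraries were at 532, 526, 17.7, 14.5, 7.82 and 2.44, and the 6 ZT15 SED libraries at 208, 73.8, 53.5, 37.9, 3.23 and 1.30. Within ZT15 RUN, 2 libraries thus exceeded every ZT15 SED library and the other 4 lay below 4 of the ZT15 SED libraries. At ZT3, Ucp1 averaged 15.2 ± 11.9 in ZT3 RUN and 27.6 ± 30.5 in ZT3 SED (SD, n = 6 each), a log2 difference of -0.14 ± 1.35 (SE; adjusted p = 0.9971 in limma). The ZT3 RUN libraries were at 27.2, 25.4, 24.6, 10.1, 2.59 and 1.34, and the ZT3 SED libraries at 73.0, 55.6, 26.8, 8.01, 1.89 and 0.0342. The log2 difference of ZT15 RUN over ZT3 RUN was 1.74 ± 1.35 (SE; adjusted p = 0.4821 in limma). DESeq2, which models the recovered reads, gave 3.60 with an adjusted p of 0.0359 for this contrast, and limma without the 3 libraries highest in Ucp1 gave -0.18. ZT15 SED over ZT3 SED gave 1.11 ± 1.35 (SE; adjusted p = 0.8042 in limma).

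Between the classes, with the 4 groups in the model, 39 of 16232 genes passed limma's test at an adjusted p under 0.05, which is 0.24% of those tested. Of these, 31 were higher in Ucp1-high libraries (0.191% of genes tested) and 8 were lower (0.0493%). Of the 31 higher genes, 10 were of a list of brown and beige adipocyte genes with 28 tested members: Dio2, Slc27a2, Acot11, Cidea, Otop1, Gk, Cpt1b, Ppara, Pank1 and Plin5. Differences above 0 were found for 27 of these 28 genes, with a median of 0.84, against 55.6% of all genes and a median of 0.02. At an unadjusted p under 0.05, 1905 genes (11.7%) passed. No gene other than Ucp1 separated the classes without overlap (0 of 16232).

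Cidea, a lipid droplet protein of brown and beige adipocytes and the second marker of the class, was not used to sort the libraries. It was at 66.9, 133 and 460 (lowest, median, highest) in Ucp1-high libraries, against 17.4, 67.9 and 126 in Ucp1-low libraries. Of the 12 high libraries, 6 lay above every low library and 11 above the low median. Its log2 difference was 1.56 ± 0.26 (SE; adjusted p = 0.01322 in limma).

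Otop1, which encodes a proton channel found in brown fat, nearly separated the classes. It was at 13.8, 30.0 and 65.2 (lowest, median, highest) in Ucp1-high libraries, against 4.45, 15.3 and 19.2 in Ucp1-low libraries, and 11 of 12 high libraries exceeded every low one. The log2 difference was 1.28 ± 0.19 (SE; adjusted p = 0.0105 in limma). Cxadr, a cell adhesion protein of tight junctions and the receptor of coxsackieviruses and adenoviruses, was alike in this. Its levels were 11.3, 18.2 and 42.0 in Ucp1-high libraries, against 6.22, 10.4 and 14.5 in Ucp1-low libraries, again with 11 of 12 high libraries above every low one. Its log2 difference was 1.00 ± 0.15 (SE; adjusted p = 0.0105 in limma). Cxadr was named after its values were seen.

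Dio2, the deiodinase that makes active thyroid hormone inside the cell, differed most. It was at 3.81, 14.9 and 253 (lowest, median, highest) in Ucp1-high libraries, against 0.685, 5.18 and 27.3 in Ucp1-low libraries. The log2 difference was 2.17 ± 0.42 (SE; adjusted p = 0.03541 in limma), although only 4 of 12 high libraries exceeded every low one.

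Slc27a2, a fatty acid transporter and acyl-CoA synthetase, was at 1.45, 3.26 and 52.7 (lowest, median, highest) in Ucp1-high libraries, against 0.111, 1.03 and 3.72 in Ucp1-low libraries, a log2 difference of 1.88 ± 0.35 (SE). Acot11, an acyl-CoA thioesterase of brown fat, was at 12.5, 27.2 and 88.7 in Ucp1-high libraries, against 2.63, 9.24 and 20.5 in Ucp1-low libraries, with a log2 difference of 1.82 ± 0.31 (SE). The groups of both genes overlapped, with 5 high libraries above every low one for Slc27a2 and 9 for Acot11. Cpt1b, the muscle and brown fat form of the carnitine palmitoyltransferase that admits long-chain fatty acids to mitochondria, was at 1.73, 2.57 and 16.3 in Ucp1-high libraries, against 0.474, 1.11 and 2.34 in Ucp1-low libraries (log2 difference 1.23 ± 0.26, SE). Ppara, the nuclear receptor that drives fatty acid oxidation genes, differed by 1.05 ± 0.19 on the log2 scale, and Pank1, a kinase of coenzyme A synthesis, by 1.06 ± 0.19 (SE). Pank1 exceeded every low library in 10 of 12 high libraries and Ppara in 8.

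Gk, the kinase that returns glycerol to triglyceride synthesis, was at 18.7, 29.1 and 137 (lowest, median, highest) in Ucp1-high libraries, against 12.2, 15.4 and 22.4 in Ucp1-low libraries, a log2 difference of 1.25 ± 0.20 (SE). Plin5, which links lipid droplets to mitochondria, differed by 0.71 ± 0.15 (SE). Of 19 fatty acid oxidation genes, 18 had differences above 0 (median 0.28), and 2 passed: Acaa2 at 0.81 ± 0.17 and Hadhb at 0.65 ± 0.13 (SE), both enzymes that release acetyl-CoA. Acaa2 was at 109, 213 and 598 in Ucp1-high libraries, against 101, 135 and 183 in Ucp1-low libraries.

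Of the 28 tested members of the thermogenic list, 18 did not pass. The 8 of these that the rule for named genes takes are given by value, and the other 10 had log2 differences between 0.02 and 1.28, with adjusted p of at least 0.06353 in limma. Cox8b and Cox7a1 are muscle and brown fat subunits of cytochrome c oxidase. Cox8b was at 34.9, 68.6 and 188 (lowest, median, highest) in Ucp1-high libraries, against 22.7, 41.2 and 83.7 in Ucp1-low libraries (0.99 ± 0.24 log2, SE; adjusted p = 0.08579 in limma). Cox7a1 was at 7.30, 17.4 and 91.1 in Ucp1-high libraries, against 5.07, 7.63 and 20.3 in Ucp1-low libraries (1.32 ± 0.36 log2, SE; adjusted p = 0.146 in limma). Elovl3, a fatty acid elongase induced by cold, was at 0.228 to 5.31 in Ucp1-high libraries and 0 to 1.97 in Ucp1-low libraries, with a log2 difference of 0.91 ± 0.22 (SE; adjusted p = 0.0874 in limma). Ppargc1a, a coactivator of mitochondrial biogenesis, had medians of 21.0 in Ucp1-high and 18.9 in Ucp1-low libraries, and Prdm16, a factor that favours the brown and beige fate, of 25.3 in Ucp1-high and 20.4 in Ucp1-low libraries. Their log2 differences were 0.59 ± 0.34 and 0.23 ± 0.14 (SE), with adjusted p of 0.5146 and 0.5611 in limma. Kcnk3, a potassium channel of brown adipocytes, and Fabp3, a fatty acid binding protein of muscle and brown fat, had log2 differences of 0.43 ± 0.18 and 1.22 ± 0.53 (SE). Adrb3, the beta-3 adrenergic receptor of adipocytes, had medians of 257 in Ucp1-high and 296 in Ucp1-low libraries (-0.05 ± 0.17 log2, SE), the sole listed member below 0.

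The other uncoupling proteins did not pass. Ucp2, which is expressed in many cell types including immune cells, had medians of 92.5 in Ucp1-high and 120 in Ucp1-low libraries (-0.20 ± 0.16 log2, SE). Ucp3, which is mainly of muscle and brown fat, had medians of 65.4 in Ucp1-high and 60.0 in Ucp1-low libraries (0.26 ± 0.15 log2, SE). Ckmt2, a mitochondrial creatine kinase of muscle, spread from 0.165 to 101 in Ucp1-high libraries and 0.610 to 74.4 in Ucp1-low libraries.

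**Figure D2:**
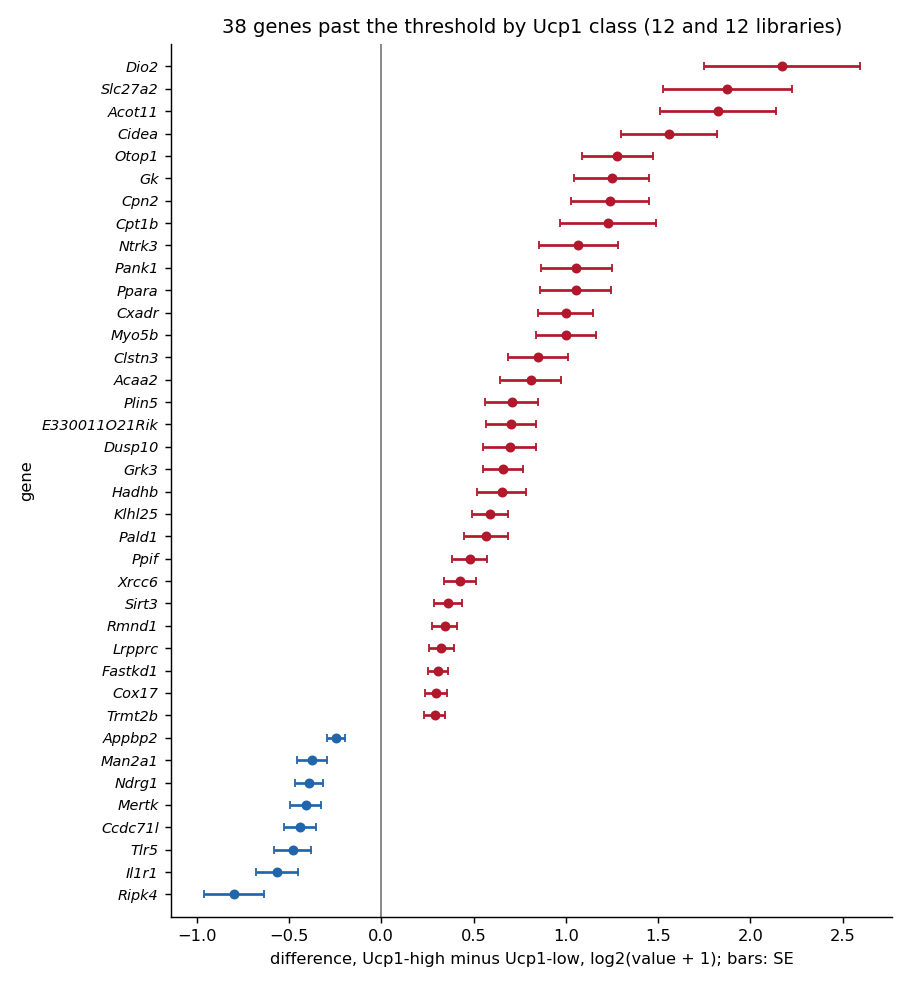
Difference in log2(value + 1), Ucp1-high minus Ucp1-low, with its SE, for 38 of the 39 genes past the threshold in limma's fit with the 4 labelled groups (12 libraries a class). Higher genes (30) are in red and the 8 lower in blue, from Dio2 at 2.17 to Ripk4 at -0.80.

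Mitochondrial genes outside the fatty acid list that passed had small differences, and they were named after their values were seen except Trmt2b. Lrpprc, Fastkd1 and Trmt2b, which act on mitochondrial RNA, differed by 0.33 ± 0.07, 0.31 ± 0.06 and 0.29 ± 0.06 on the log2 scale (SE). Rmnd1, needed for mitochondrial translation, differed by 0.34 ± 0.07, and Cox17, a copper carrier for cytochrome c oxidase, by 0.30 ± 0.06. Sirt3, a mitochondrial deacetylase, and Ppif, the cyclophilin of the permeability pore, differed by 0.36 ± 0.08 and 0.48 ± 0.10. For Lrpprc the levels were 83.4, 96.2 and 147 (lowest, median, highest) in Ucp1-high libraries, against 70.8, 83.2 and 95.5 in Ucp1-low libraries, so the ranges overlapped in part. Of the lists for mitochondria, the citric acid cycle had 17 of 17 members above 0 (median 0.37) and the respiratory chain 37 of 38 (median 0.32), and none of either passed. The citric acid cycle median was 0.60 at ZT15 and 0.16 at ZT3, and the respiratory chain median 0.58 at ZT15 and 0.10 at ZT3. Without the 3 libraries highest in Ucp1, the medians were 0.16 for the citric acid cycle and 0.10 for the respiratory chain. Sdha, a subunit of succinate dehydrogenase, had medians of 728 in Ucp1-high and 672 in Ucp1-low libraries (0.29 ± 0.11 log2, SE; adjusted p = 0.2923 in limma). In the list of mitochondrial transcription and ribosome genes, 13 of 13 were above 0 with a median of 0.14 and none passed.

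Ntrk3, a neurotrophin receptor, was at 44.4, 86.0 and 174 (lowest, median, highest) in Ucp1-high libraries, against 12.9, 48.4 and 75.0 in Ucp1-low libraries (1.07 ± 0.21 log2, SE). Clstn3, a calsyntenin whose adipocyte form acts at lipid droplets in mice, was at 17.2, 34.6 and 74.5 in Ucp1-high libraries, against 15.5, 21.8 and 33.2 in Ucp1-low libraries (0.85 ± 0.16 log2, SE). Grk3, a kinase that desensitises G protein coupled receptors, differed by 0.66 ± 0.11, and Dusp10, a phosphatase of MAP kinases, by 0.70 ± 0.15. Both overlapped between the classes, with 7 of 12 high libraries above every low one. Cpn2, a subunit of a plasma carboxypeptidase, and Myo5b, a myosin motor of vesicles, differed by 1.24 ± 0.21 and 1.00 ± 0.16. Klhl25, an adaptor of a ubiquitin ligase, and Xrcc6, a DNA repair protein, differed by 0.59 ± 0.10 and 0.43 ± 0.09. Pald1 and E330011O21Rik differed by 0.57 ± 0.12 and 0.70 ± 0.14 (SE). These 6 were named after their values were seen.

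The 8 genes lower in Ucp1-high libraries differed by -0.25 to -0.80 on the log2 scale, and 3 of them, Il1r1, Tlr5 and Mertk, are receptors. Il1r1, the interleukin 1 receptor, was at 46.1, 67.8 and 83.1 (lowest, median, highest) in Ucp1-high libraries, against 72.5, 98.5 and 181 in Ucp1-low libraries. In 10 of 12 high libraries it lay below every low library, and its log2 difference was -0.56 ± 0.11 (SE; adjusted p = 0.03869 in limma). Tlr5, the receptor for bacterial flagellin, was at 12.9, 17.8 and 23.8 in Ucp1-high libraries, against 18.4, 25.5 and 37.0 in Ucp1-low libraries, a difference of -0.48 ± 0.10 (SE). Mertk, a receptor kinase for the uptake of dying cells, differed by -0.41 ± 0.09, and Ndrg1, a gene induced by low oxygen, by -0.39 ± 0.08 (SE). Man2a1, a Golgi mannosidase, Appbp2 and Ccdc71l differed by -0.38 ± 0.08, -0.25 ± 0.05 and -0.44 ± 0.09 (SE). Ripk4, a kinase of epithelial differentiation named after its values were seen, was at 0.727, 3.44 and 13.9 in Ucp1-high libraries, against 1.17, 7.79 and 21.8 in Ucp1-low libraries (-0.80 ± 0.16 log2, SE).

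Ripk4 was also the sole gene of the 39 to pass in a labelled contrast. By limma over all genes it passed between ZT15 SED and ZT3 SED (1.40 ± 0.32 log2, SE; adjusted p = 0.0256), where 1.18% of genes passed, and between ZT15 RUN and ZT3 RUN (1.74 ± 0.32 log2, SE; adjusted p = 0.003045), where 4.19% passed. For exercise, 0 of the 39 passed at ZT15, against 0.641% of all genes, and 0 at ZT3, where 0% passed in limma and 2.27% had an unadjusted p under 0.05. An unadjusted p under 0.05 for exercise was found for 6 of the 39 (15.4%) at ZT15, where 12.7% of all genes had one, and for 1 at ZT3 (2.56%). For ZT15 against ZT3, 9 of the 39 (23.1%) had one in SED, where 12.1% of all genes did. In RUN 13 of the 39 (33.3%) had one, where 20.8% of all genes did.

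As a description over 24 libraries that share depth and tissue content, Spearman's rho with Ucp1 was computed on log2 values after subtracting group means, among genes above the median level. Otop1 was the most alike at 0.933, then Gk at 0.906, Ppara at 0.903, Pank1 at 0.897, Cidea at 0.894, Trmt2b at 0.871, Clstn3 at 0.870 and Cox8b at 0.870. The lowest values belonged to Sec24d, a coat protein of vesicles leaving the endoplasmic reticulum, at -0.794, Man2b2, a lysosomal mannosidase, at -0.742, Adam23, a surface protein of the disintegrin family, at -0.739, and Erlin1, a lipid raft protein of the endoplasmic reticulum, at -0.716. These last 4 did not pass between the classes, with log2 differences of -0.32 for Sec24d, -0.20 for Man2b2, -0.31 for Adam23 and -0.28 for Erlin1.

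Genes of adipocytes in general did not pass. In the list of adipocyte identity, 4 of 12 members were above 0 with a median of -0.17, and none passed. Adipoq, the adipokine adiponectin, was at 1101, 2290 and 2977 (lowest, median, highest) in Ucp1-high libraries, against 1983, 2611 and 3183 in Ucp1-low libraries (-0.29 ± 0.15 log2, SE; adjusted p = 0.4562 in limma). Its 2 lowest values, 1101 and 1223, were in ZT3 RUN 4 and ZT15 SED 5, which also had the highest Cd79a. Lep, the hormone leptin, had medians of 488 in Ucp1-high and 435 in Ucp1-low libraries (0.01 ± 0.30 log2, SE). This value pools opposite signs, as the class difference of Lep was 0.85 ± 0.36 at ZT3 and -0.93 ± 0.25 at ZT15 (SE). Neither passed in limma (adjusted p = 0.5428 at ZT3 and 0.2084 at ZT15). The class by time term of Lep was -1.78 ± 0.47 (SE; adjusted p = 0.129 in limma). Lipolysis genes had 2 of 9 members above 0 (median -0.15), and de novo lipogenesis 14 of 15 (median 0.17), with none past the threshold in either. Fasn, fatty acid synthase, had medians of 19620 in Ucp1-high and 14720 in Ucp1-low libraries (0.29 ± 0.26 log2, SE). In the list of beige and depot markers 8 of 14 were above 0 (median 0.08), and in that of beta adrenergic signalling 6 of 10 (median 0.09).

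In the remaining lists no member passed. Glucose use genes had 14 of 16 members above 0 (median 0.37), and immediate early genes 10 of 14 (median 0.23). The glucose use list had 13 of 16 above 0 at ZT15 (median 0.48) and 9 of 16 at ZT3 (median 0.06). The immediate early list had 12 of 14 above 0 at ZT15 (median 0.30) and 6 of 14 at ZT3 (median -0.02). Among the immediate early genes, Irf4, a factor of lymphocytes and fat, had medians of 84.4 in Ucp1-high and 451 in Ucp1-low libraries (-1.18 ± 0.44 log2, SE; adjusted p = 0.2816 in limma), and Fosl2, an AP-1 subunit, of 78.3 in Ucp1-high and 153 in Ucp1-low libraries (-0.47 ± 0.17 log2, SE). The Irf4 difference was -2.42 ± 0.40 at ZT3 and 0.20 ± 0.51 at ZT15 (SE), with adjusted p of 0.2638 and 0.9535 in limma. Genes of creatine and calcium cycling had 4 of 8 above 0, peroxisome genes 5 of 10, clock genes 6 of 14 and triglyceride and glycerol genes 6 of 13. Factors released by thermogenic fat had 1 of 9 above 0 (median -0.13), Schwann cell and nerve genes 1 of 8 (median -0.29), endothelial genes 2 of 9 (median -0.12) and epithelial genes 5 of 5 (median 0.14). The epithelial genes were low, their sum having a median of 3.80 in Ucp1-high and 3.29 in Ucp1-low libraries. At ZT15 5 of 5 were above 0 (median 1.00) and at ZT3 0 of 5 (median -0.60).

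**Figure D3:**
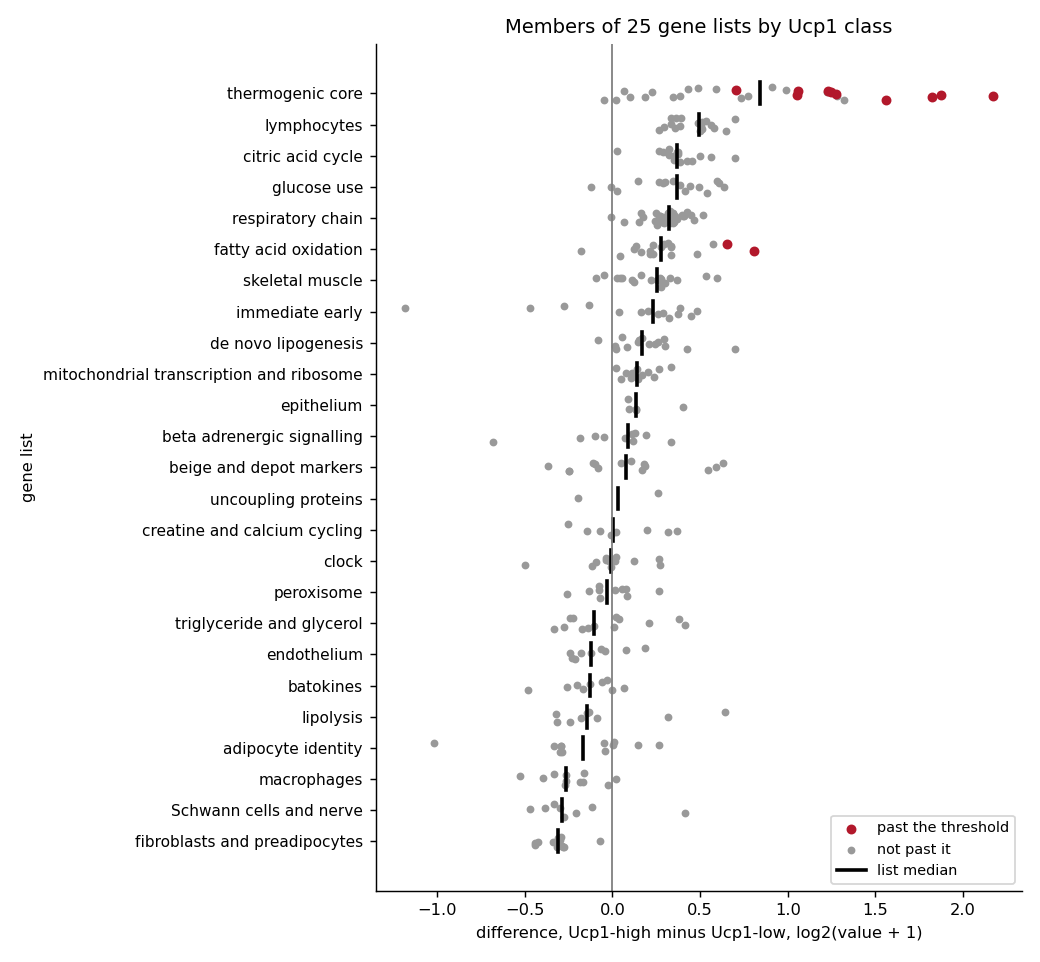
Difference in log2(value + 1), Ucp1-high minus Ucp1-low, for each tested member (points) of 25 gene lists, ordered by the list median (black bars), with members past the threshold in red. The 10 thermogenic and 2 fatty acid oxidation genes are the only list members past it in limma's fit, and the list medians run from 0.84 to -0.31.

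Markers of other cell types did not pass in any list, and several lists lay on 1 side of 0. Of 13 fibroblast and preadipocyte genes, 0 were above 0 (median -0.31), and of 11 macrophage genes 1 was (median -0.26). Col3a1, a collagen of fibroblasts, had medians of 5091 in Ucp1-high and 6141 in Ucp1-low libraries (-0.32 ± 0.17 log2, SE; adjusted p = 0.4945 in limma). Mrc1, the mannose receptor of resident macrophages, had medians of 299 in Ucp1-high and 363 in Ucp1-low libraries (-0.40 ± 0.22 log2, SE; adjusted p = 0.4966 in limma). The summed fibroblast list ranged from 4388 to 20340 in Ucp1-high and 10680 to 19990 in Ucp1-low libraries, and the summed macrophage list from 737 to 2307 in Ucp1-high and 838 to 2590 in Ucp1-low libraries. The part of these lists in the lower genes was not tested.

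Myh4, the fast myosin of skeletal muscle, and Cd79a, a B cell receptor component, measure neighbouring tissue. Myh4 was at 0.631, 1367 and 22110 (lowest, median, highest) in Ucp1-high libraries, against 61.4, 1097 and 8207 in Ucp1-low libraries, a log2 difference of -0.09 ± 1.49 (SE; adjusted p = 0.9815 in limma). Cd79a was at 0.307, 0.589 and 99.2 in Ucp1-high libraries, against 0.240, 0.502 and 14.1 in Ucp1-low libraries (0.49 ± 0.67 log2, SE; adjusted p = 0.794 in limma). The classes overlapped in both genes. Muscle markers had 17 of 19 members above 0 (median 0.25) and lymphocyte markers 18 of 18 (median 0.50), with none past the threshold in either. The lymphocyte list had 18 of 18 above 0 at ZT3 (median 1.01) and 4 of 18 at ZT15 (median -0.14). Without the 3 libraries high in Cd79a it had 12 of 18 above 0 (median 0.07). The summed muscle list ranged from 146 to 93390 in Ucp1-high and 436 to 42570 in Ucp1-low libraries, and the summed lymphocyte list from 121 to 2782 in Ucp1-high and 77.1 to 603 in Ucp1-low libraries. Of the muscle markers, Myh7 alone was at 0 in some libraries, and no lymphocyte marker was at 0 in any.

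Muscle content ran in opposite directions at the 2 times. At ZT15, Myh4 was at 0.631, 6398 and 22110 (lowest, median, highest) in the 6 Ucp1-high libraries, against 61.4, 120 and 1139 in the 6 Ucp1-low libraries. At ZT3 it was at 15.8, 459 and 2780 in the 6 Ucp1-high libraries, against 1059, 3263 and 8207 in the 6 Ucp1-low libraries. The median difference of the muscle list was 3.31 at ZT15, with 19 of 19 members above 0, and -2.56 at ZT3, with 0 of 19. The class difference of Myh4 was 3.05 ± 2.37 at ZT15 and -2.89 ± 1.16 at ZT3 (SE), and their difference of 5.93 ± 2.75 (SE) had an adjusted p of 0.4689 in limma. The 3 libraries highest in Ucp1 had Myh4 values of 8995, 22110 and 18300, the 3 highest of all 24.

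**Figure D4:**
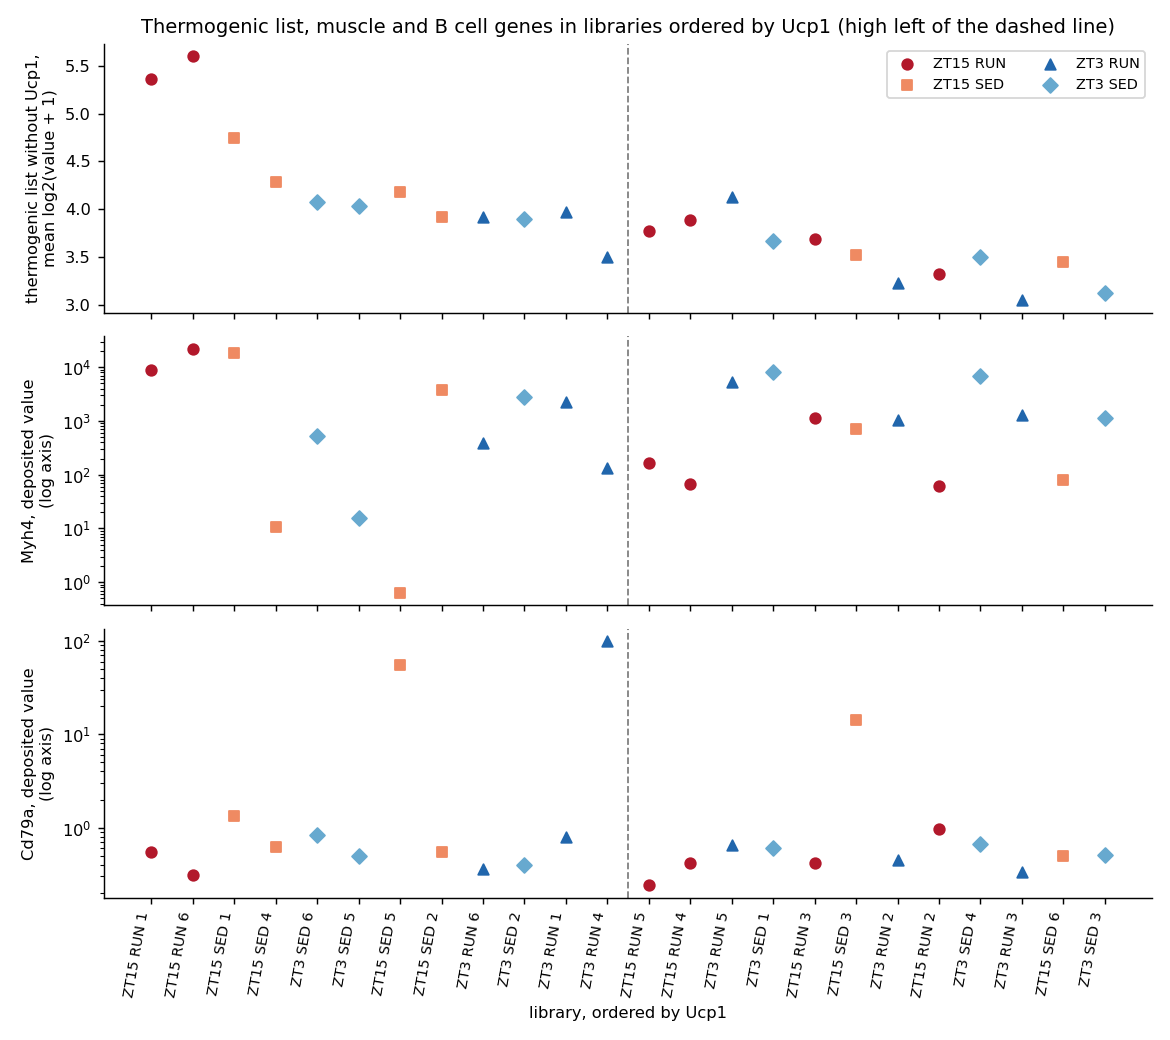
Mean log2(value + 1) of the thermogenic list without Ucp1 (top), and deposited values of Myh4 (middle) and Cd79a (bottom) on log axes, in 24 libraries ordered by Ucp1 and coloured by labelled group. The thermogenic mean spanned 3.50 to 5.60 in Ucp1-high and 3.04 to 4.12 in Ucp1-low libraries, Myh4 peaked in the 3 libraries highest in Ucp1, and Cd79a was above 5 in 3 libraries.

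With scores of the muscle and lymphocyte lists as covariates, 200 genes passed (1.23%), 147 higher and 53 lower, and they included all 39. Of the thermogenic list 17 of 28 then passed, of the respiratory chain 16 of 38, of the citric acid cycle 8 of 17 and of fatty acid oxidation 6 of 19, all higher in Ucp1-high libraries. Without the 3 libraries high in Cd79a 84 genes passed (0.517%), including 29 of the 39, and without the 3 libraries highest in Ucp1 0 passed in limma, with 1235 genes at an unadjusted p under 0.05. In that last fit the thermogenic list had 25 of 28 members above 0 with a median of 0.48, and the muscle list 0 of 19 with a median of -2.03.

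Within each time, a split added after the data were seen, the 39 genes had the same sign at both ZT15 and ZT3, which 55.1% of all genes had. The 39 were called on these same libraries, so their agreement in sign is largely set by that choice. The median of the 31 higher genes was 1.04 at ZT15 and 0.56 at ZT3. The thermogenic list had a median of 1.31 at ZT15 (27 of 28 above 0) and 0.36 at ZT3 (24 of 28). In limma, 6 genes (0.037%) passed among ZT15 libraries alone, namely Dio2, Fabp3, Cpt1b, Gk, Cxadr and Clstn3, and 0 among ZT3 libraries alone, with 1440 at an unadjusted p under 0.05. These separate counts do not test a difference between the times.

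The members differed in how alike the 2 times were. Cidea was at 103, 190 and 460 (lowest, median, highest) in the Ucp1-high libraries of ZT15, against 56.4, 77.9 and 116 in the Ucp1-low ones, and at 66.9, 113 and 149 in the Ucp1-high libraries of ZT3, against 17.4, 37.0 and 126 in the Ucp1-low ones. Its class difference was 1.74 at ZT15 and 1.40 at ZT3, and that of Otop1 was 1.27 at ZT15 and 1.29 at ZT3. Dio2 differed by 3.43 ± 0.45 at ZT15 and 1.05 ± 0.47 at ZT3, and Cpt1b by 2.19 ± 0.27 at ZT15 and 0.37 ± 0.20 at ZT3 (SE). Fabp3 was at 3.61, 14.5 and 53.7 in the Ucp1-high libraries of ZT15, against 0.446, 1.77 and 3.06 in the Ucp1-low ones, with no overlap, while at ZT3 it was at 1.20, 2.80 and 6.47 in the Ucp1-high libraries, against 1.09, 4.97 and 11.8 in the Ucp1-low ones. Its class difference was 3.22 ± 0.45 at ZT15 and -0.55 ± 0.48 at ZT3 (SE), which is the direction of the muscle list at each time, and Fabp3 is also a muscle gene. The part of muscle in these differences was not tested for single genes. The class by time fit with tissue scores below is given only as a count.

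The class by time term tested that difference directly. In limma 0 genes passed (0%), both without and with the muscle and lymphocyte scores as covariates. These equal counts do not measure the part of muscle. Without the scores, 1622 genes (9.99%) had an unadjusted p under 0.05. The terms were 3.77 ± 0.70 for Fabp3, 1.81 ± 0.35 for Cpt1b, 1.39 ± 0.28 for Gk and 2.38 ± 0.69 for Dio2 (ZT15 minus ZT3, SE), with adjusted p of 0.129, 0.129, 0.129 and 0.134 in limma, against 0.34 ± 0.53 for Cidea and -0.02 ± 0.39 for Otop1. DESeq2 called 537 genes and edgeR 1, Tlcd4, named after its values were seen. Leaving out ZT15 SED 5 gave 355 calls in limma, ZT15 SED 4 239 and ZT3 RUN 2 1, and each other library 0. ZT15 SED 4 and ZT15 SED 5 are the Ucp1-high libraries of ZT15 with the least Myh4, 10.7 and 0.631. ZT15 SED 5 also had Cd79a at 54.6. Whether the content of either tissue bears on these counts was not tested. Without the 3 libraries high in Cd79a, among them ZT15 SED 5, 446 genes passed (2.75%), and 7 of 28 thermogenic genes were among them, as were 2 of 19 muscle genes at a list median of 7.35.

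**Figure D5:**
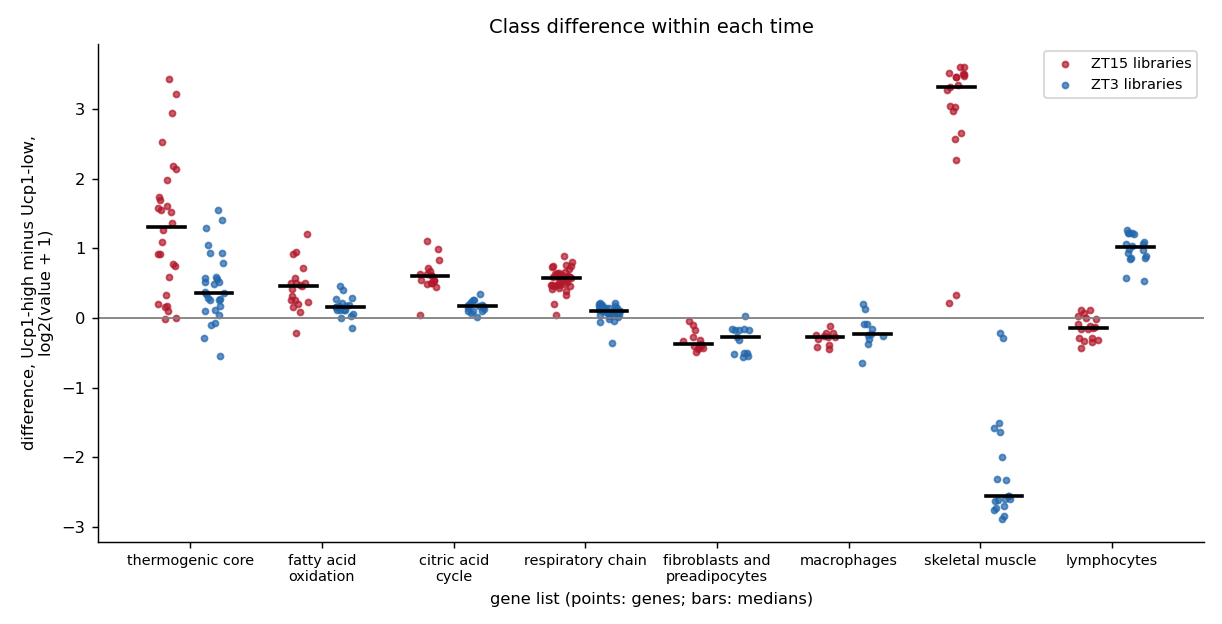
Class difference in log2(value + 1), Ucp1-high minus Ucp1-low, within ZT15 libraries (red) and ZT3 libraries (blue), for the genes (points) of 8 lists, with medians as black bars (6 libraries per class and time). The thermogenic median was 1.31 at ZT15 and 0.36 at ZT3, and the muscle median was 3.31 at ZT15 and -2.56 at ZT3.

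The classes were also uneven over the numbers in the sample titles, whose meaning the labels do not give. Of the 8 libraries with title numbers 1 to 8, 5 were Ucp1-high, of 9 to 16 6, and of 17 to 24 1. With these blocks in the model 0 genes passed in limma, with 1509 at an unadjusted p under 0.05, among them all 39. All 39 kept their sign, and the median size of their differences was 0.64 with the blocks and 0.66 without. The 39 were called on these same libraries, so their sign, size and unadjusted p here are largely set by that choice. The part of the title numbers in the class differences was not tested. Cidea then differed by 1.35 (adjusted p = 0.1932 in limma). Within blocks, Cidea averaged 7.28 on the log2 scale in Ucp1-high and 6.53 in Ucp1-low libraries of titles 1 to 8, 7.29 in Ucp1-high and 5.92 in Ucp1-low libraries of 9 to 16, and 7.30 in the single Ucp1-high and 5.55 in the Ucp1-low libraries of 17 to 24. Otop1 averaged 4.93 in Ucp1-high and 4.26 in Ucp1-low libraries of titles 1 to 8, 4.96 in Ucp1-high and 3.88 in Ucp1-low libraries of 9 to 16, and 5.19 in the single Ucp1-high and 3.51 in the Ucp1-low libraries of 17 to 24.

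The number of genes called depended on single libraries. Leaving out one library at a time, limma called 3 genes without ZT15 RUN 6, 5 without ZT15 RUN 1, 9 without ZT3 RUN 3, 12 without ZT3 SED 3, 13 without ZT15 SED 1, 14 without ZT15 RUN 4, 15 without ZT15 SED 5 and 16 without ZT15 RUN 5. It called 17 without ZT3 RUN 1, ZT3 SED 2, ZT15 RUN 2, ZT3 RUN 2 or ZT15 SED 3, 19 without ZT3 RUN 6, 22 without ZT3 SED 1 or ZT15 SED 6 and 23 without ZT3 SED 6. It called 73 without ZT3 RUN 5 and 119 without ZT3 RUN 4, and between 28 and 57 without each of the other 5. All 39 genes kept their direction in the 24 fits, as their choice on the same libraries largely sets, and a called gene passed in a median of 9 of them. Otop1 and Cxadr passed in all 24, and Cidea in 22, with adjusted p of 0.06078 without ZT15 RUN 1 and 0.05293 without ZT15 RUN 6 in limma.

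The class also entered the labelled exercise comparison at ZT15 as a covariate. With it, 58 genes passed between ZT15 RUN and ZT15 SED in limma (0.357% of those tested), 49 higher and 9 lower in ZT15 RUN, and all 58 were among the 104 genes (78 higher and 26 lower) that passed without the class. Leaving out a library gave 0 calls without ZT15 RUN 1 or ZT15 SED 3, 1 without ZT15 SED 6, 8 without ZT15 RUN 5, 9 without ZT15 RUN 4 or ZT15 RUN 6, 13 without ZT15 SED 5 and 17 without ZT15 SED 2 or ZT3 SED 4. It gave 18 without ZT3 SED 6, 19 without ZT3 SED 2, 21 without ZT15 SED 1, 25 without ZT3 RUN 3, 31 without ZT15 SED 4, 36 without ZT3 RUN 6 and 37 without ZT15 RUN 2 or ZT3 SED 5, against 88 without ZT3 SED 1, 137 without ZT3 RUN 4 and 195 without ZT15 RUN 3.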

How the data were processed

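The 24 inguinal fat libraries were made with a stranded kit from total RNA depleted of ribosomal RNA, per the labels. The tools STAR, featureCounts, Subread 1.6.2 and limma 3.48.3 appear, with no role given, in the submitters' processing notes. What build, annotation and strand setting were used is not given in the sources used here, so reads of overlapping or antisense genes cannot be told apart. The deposited table, made by the authors, holds 16233 genes as normalized signal. In it 100% of values were whole multiples of a step per library within 0.01 of a read, so reads could be recovered (18.5 to 34.7 M reads per library), and the steps matched TMM scaling per M reads to a relative 5.8e-11. Reads are the limit to precision: 1 read was worth 0.0342 in the library with the lowest Ucp1. Among 276 library pairs none agreed within sampling noise (lowest chi-square per degree of freedom 21.7).

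Tests ran on log2(value + 1), a scale that shrinks differences of low genes, with limma 3.58.1 in R 4.3.3 (lmFit, eBayes with trend), group means plus the class, Benjamini-Hochberg over 16232 genes without Ucp1, and a threshold of 0.05. Labelled contrasts used group means alone over 16233 genes. Fits on the recovered reads with edgeR 4.0.16 (quasi-likelihood) called 38 genes and with DESeq2 1.42.0 called 213. The DESeq2 calls were 122 higher and 91 lower in Ucp1-high libraries, against 31 higher and 8 lower in limma. The scripts were tested on simulated data. Members, lists and rules were chosen with earlier results of these data known. Genes were named as the 12 of largest difference per direction above the median level with a named symbol, up to 4 passing or the 2 most abundant per list, the 8 and 4 ends of the likeness to Ucp1, and a set of 20; any other is said to be chosen after its values were seen, and for lists without a called member not every example is printed. Ensembl gene identifiers were found in GENCODE M21 for 16233 of 16233, and symbols were not compared. Promoter windows come from the RefSeq table of GRCm38.p6 by gene symbol, with mouse chromosome 18 left out. The values of 1 called gene are not reported here. Alternatives were another scaling, pseudocount, filter, moderation, class rule, covariates, and leaving out libraries.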

Additional observations from a re-analysis of the deposited data

Results flagged for a closer look

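Among 80 groups of 6 libraries examined over the 20 genes always named, 5 held a library set far from the rest of its labelled group, where chance gives about 1 in 20. Cd79a was at 99.2 in ZT3 RUN 4 (Ucp1-high), against 0.334 to 0.786 in the other ZT3 RUN libraries. The same library had Adipoq at 1101, against 2138 to 2977 in the others, and ZT15 SED 5 (Ucp1-high) had Adipoq at 1223, against 2227 to 2923 in the other ZT15 SED libraries. Ppargc1a was at 54.1 in ZT3 RUN 5 (Ucp1-low), against 14.4 to 22.3 in the others. Cpt1b was at 0.753 in ZT3 SED 3 (Ucp1-low and the lowest in Ucp1 of all), against 2.04 to 2.44 in the others.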

How the results depend on the processing

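No paired analysis was possible because the labels give no number that groups share: the title numbers 1 to 24 are each used once, and the replicate numbers 1 to 6 used here follow the order of the records and only name libraries. All 39 genes called by class kept their direction under the 16 settings other than leaving out a library, which their choice on these libraries largely sets. The class count was 17 with median centring, 200 with tissue scores, 0 with title blocks, 84 without the libraries high in Cd79a, 6 without the 4 libraries next to the boundary, 0 with the upper 3 and lower 3 of each group (2065 at an unadjusted p under 0.05), 265 with continuous Ucp1, 0 without group terms (2041 unadjusted), 213 with DESeq2 and 38 with edgeR. Settings added after seeing the data gave 0 without the 3 libraries highest in Ucp1, 0 in ZT3 and 6 in ZT15 alone. Cidea was 1.35 with title blocks, 1.65 without the boundary libraries, 1.37 with upper and lower 3, 1.43 without group terms, 1.26 without the top 3, 1.40 in ZT3 and 1.74 in ZT15, none past the threshold. The cause was not tested, beyond the fewer libraries in some fits.

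For class by time, leaving out the libraries high in Cd79a gave 446, 1 with edgeR and 537 with DESeq2. The exercise count at ZT15 was 22 with tissue scores, 18 with title blocks, 0 without the libraries high in Cd79a (1671 at an unadjusted p under 0.05), 118 with upper and lower 3, 104 without the class, 0 without the top 3 (865 unadjusted) and 270 with DESeq2. Signs that turned were all of uncalled values. Myh4 became 0.89 without the libraries high in Cd79a, 0.98 with continuous Ucp1, 3.05 in ZT15, 1.40 with edgeR and 1.40 with DESeq2. Cd79a became -0.037 with tissue scores, -0.13 without the boundary libraries and -0.11 in ZT15. Lep became -0.026 with median centring, -0.016 without the boundary libraries, -0.24 with continuous Ucp1 and -0.93 in ZT15. Adrb3 became 0.056 with tissue scores, 0.035 without the libraries high in Cd79a, 0.080 without the boundary libraries, 0.039 with upper and lower 3 and 0.044 with continuous Ucp1. Ckmt2 became -0.10 with title blocks, -0.43 with upper and lower 3, -1.37 without the top 3 and -2.02 in ZT3. Ppargc1a became -0.058 without the top 3 and -0.28 in ZT3, Fabp3 -0.55 in ZT3 and Irf4 0.20 in ZT15. Ucp1 with exercise at ZT3 became 0.25 with a pseudocount of 0.1; without the top 3 its exercise difference at ZT15 became -0.84 and its ZT15 over ZT3 difference in RUN -0.18, which DESeq2 gave as 3.60 and past the threshold.

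Leaving out single libraries gave 3 to 119 calls by class, 0 to 355 by class and time and 0 to 195 by exercise. Cidea ranged from 1.45 to 1.76, Ckmt2 from -0.12 to 0.82, Adrb3 from -0.11 to 0.040, Lep from -0.14 to 0.20, Myh4 from -0.87 to 0.57, Cd79a from -0.046 to 0.82, Ucp1 with exercise at ZT3 from -0.85 to 0.39 and at ZT15 from -0.28 to 1.17. Depth limits Elovl3, listed at 0 in 1 Ucp1-low library, and Ucp1 in ZT3 SED 3, where it had 1 read.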
